A study of Mus musculus with 6 samples.

Results

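Messenger RNA of 5 lipid synthesis genes, Scd1, Scd2, Elovl5, Sqle and Nsdhl, was measured in the hearts of mice with and without Pgc1b. The genes were taken from the platform annotation as those whose probe sets carry 1 of these symbols and have values in the table. They had 8 such probe sets of the 643 measured for genes, and made up 5 of the 494 genes with a single symbol. The array's annotation lists 1 further probe set, for Elovl5, which was not analysed here.

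Each of the 6 samples was the snap-frozen heart of 1 mouse on a mixed sv129 and C57BL/6 background, hybridised to 1 Affymetrix 3' expression array. There were 3 wild-type hearts and 3 Pgc1b knockout hearts, and all mice were kept with free access to food and 12 h of light and 12 h of dark. The labels used here call them biological replicates, and give no age, sex or treatment and no description of the knockout allele beyond a citation. Pgc1b, now named Ppargc1b, was itself not analysed here, and no check of genotype by its transcript was made.

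Stearoyl-CoA desaturases put the first double bond into saturated fatty acids, elongases lengthen fatty acids, and the sterol enzymes carry squalene on towards cholesterol. In liver, genes of these pathways are known targets of the SREBP transcription factors, which are released from the endoplasmic reticulum when sterols run low, and PGC-1β is known as a coactivator of SREBP there. In heart muscle, which burns more fatty acid than it makes, desaturases are known for setting the balance of saturated and unsaturated fat.

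Upstream sequences are shown for Nsdhl and Elovl5, the 2 members with an entry in the promoter table. They are the 250 bases before the annotated start in RefSeq, build GRCm38.p6, both on the plus strand, at chrX:72918271-72918520 for Nsdhl and chr9:77917115-77917364 for Elovl5. Scd1, Scd2 and Sqle had no entry there. Capitals mark CCAAT boxes, read here on the opposite strand as ATTGG, the motif bound by NF-Y, a factor known to work beside SREBP.
Nsdhl: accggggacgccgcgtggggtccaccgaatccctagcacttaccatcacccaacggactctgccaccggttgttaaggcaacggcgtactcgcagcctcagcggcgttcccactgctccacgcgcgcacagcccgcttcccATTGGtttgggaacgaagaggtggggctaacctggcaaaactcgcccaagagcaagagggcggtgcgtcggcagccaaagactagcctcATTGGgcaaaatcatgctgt
Elovl5: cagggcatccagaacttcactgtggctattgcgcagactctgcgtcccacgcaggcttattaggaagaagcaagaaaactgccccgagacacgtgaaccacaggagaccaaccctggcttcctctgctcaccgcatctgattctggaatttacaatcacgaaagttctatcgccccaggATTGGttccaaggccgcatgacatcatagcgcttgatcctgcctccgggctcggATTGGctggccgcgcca

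Each window holds 2 CCAAT boxes, whose leftmost bases lie at -109 and -20 from the start for Nsdhl and at -71 and -17 for Elovl5. Of the 32851 promoter windows of the same length in the table, 33.8% hold at least 1 CCAAT on either strand. The share with 2 or more was not counted. The E-box CACGTG occurs once in the Elovl5 window, at -161, and in 6.02% of all windows. The GC box GGGCGG occurs once in the Nsdhl window, at -52, and in 32.7% of all windows. The sterol regulatory element, searched as TCACNCCAC on both strands and present in 1.05% of windows, and the half-site of oestrogen-related receptors, AAGGTCA, present in 4.08%, had 0 matches in either window. Only exact matches to the letters given were counted, and near matches were not searched for. None of these motifs overlapped another. A match describes letters in a window and is not a measured binding site.

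Of 9 listed heart muscle markers 2 were measured, Actc1 and Gja1, and both were bright in all samples. The log2 level of cardiac actin Actc1 was 14.11 ± 0.03 in the wild type and 14.12 ± 0.01 in the knockout (SD, n = 3 each). The gap junction gene Gja1 averaged 10.71 in both genotypes in its brighter probe set. It differed by 0.00 in that probe set and by -0.10 in its dimmer one. Both measured red cell genes had higher means in the knockout, Bpgm by 0.31 and 0.46 in its 2 probe sets and Car1 by 0.13, and the endothelial receptor gene Tie1 differed by -0.08. None of these markers passed in limma, and their part in the results was not tested. Markers of fat cells (0 of 10) and Schwann cells (0 of 6), both rich in desaturase RNA, were among the genes not analysed here. The listed markers of macrophages, fibroblasts and smooth muscle were also not analysed here. Since whole hearts were used, fewer cells of a type and less RNA per cell cannot be told apart. The hybridisation spikes, RNAs added in a fixed amount to follow array handling, averaged 9.89 ± 0.23 on wild-type and 9.52 ± 0.18 on knockout arrays, with every knockout array the lower. The 3' minus 5' signal of Actb, a measure of RNA quality, averaged 0.75 ± 0.02 in the wild type and 0.63 ± 0.11 in the knockout. The same signal of Gapdh averaged 0.08 ± 0.09 and 0.08 ± 0.11. The poly-A spikes, another set of added control RNAs, averaged 7.08 ± 0.43 and 7.14 ± 0.58.

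By the brightest probe set of each gene, all 5 genes had a lower mean in the knockout hearts, against 47.6% of all 494 genes. The median difference of the 5 genes was -0.15 on the log2 scale (knockout minus wild type), beside 0.01 for all genes. Over all 8 probe sets it was -0.03, with the log2 values of a gene's probe sets averaged -0.03, and without wild-type heart 3 -0.07. By the brightest probe sets, the differences were widest for the desaturases, intermediate for Nsdhl and close to 0 for Elovl5 and Sqle. That order did not hold with the probe sets of a gene averaged. Nsdhl, with a single probe set, was then widest at -0.15, beside -0.12 for Scd1 and -0.03 for Scd2. Of the 8 probe sets 5 had a lower mean in the knockout, against 45.7% of all probe sets, and the 3 higher ones were the dimmer probe sets of Scd1 and Scd2. None of the 8 probe sets passed limma's test with Benjamini-Hochberg adjustment over 643 probe sets, where 0% were called. At an unadjusted p under 0.05 limma had 0 of the 8, and 10.3% of all probe sets. With the spike level as a covariate the median of the 5 genes was -0.37. The genes were chosen with earlier results of these hearts known, so their shared direction is a description.

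**Figure D1:**
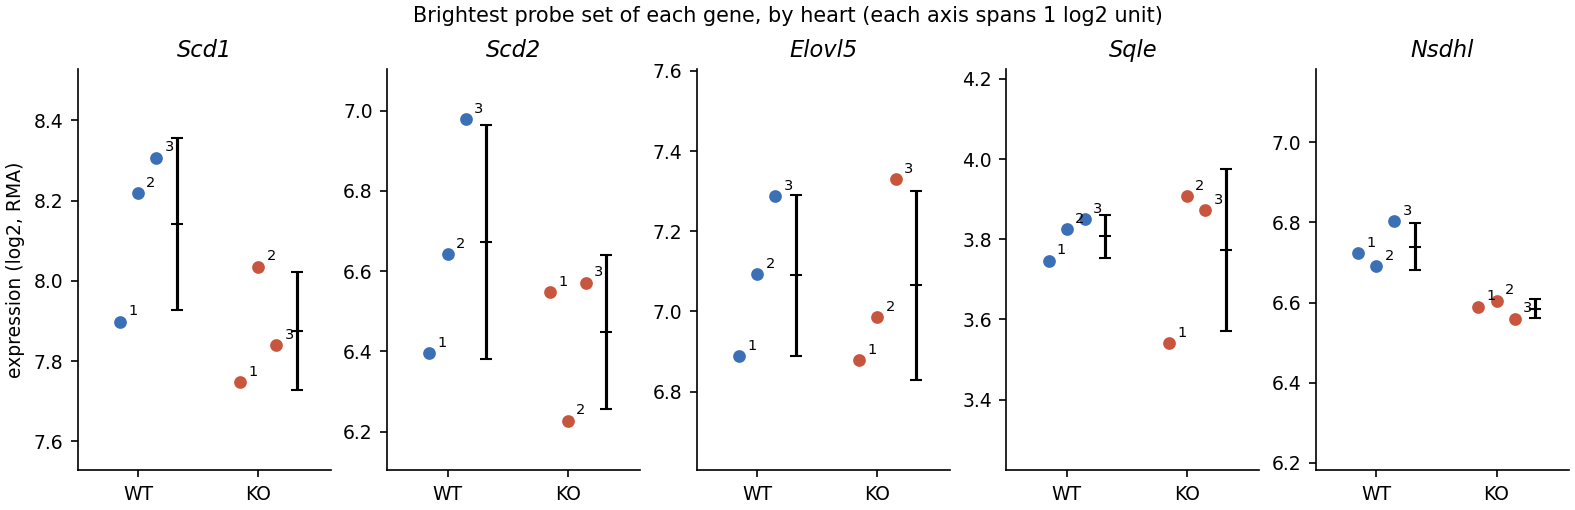
Expression (log2, RMA) of the brightest probe set of each gene in 3 wild-type (WT, blue) and 3 Pgc1b knockout (KO, red) hearts, numbered by replicate, with black bars for the mean ± SD and each vertical axis spanning 1 log2 unit. The groups separate for Nsdhl alone, and knockout heart 1 is the lowest of the 6 hearts for Scd1, Elovl5 and Sqle.

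Scd1 encodes the main stearoyl-CoA desaturase of liver and fat. Its brighter probe set (1415964_at) read 7.90, 8.22 and 8.31 in wild-type hearts 1 to 3 and 7.75, 8.04 and 7.84 in knockout hearts 1 to 3 on the log2 scale. Wild-type hearts 2 and 3 were above all knockout hearts, but wild-type heart 1 lay below knockout heart 2, so the groups overlapped. The means were 8.14 ± 0.22 and 7.87 ± 0.15 (SD, n = 3), a knockout level of 83.1% of wild type (95% interval 67.6% to 102%). The difference was -0.27 (interval -0.56 to 0.03; limma adjusted p = 0.508). Among the 494 genes, 16 had a difference this low or lower, Scd1 included.

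The dimmer probe set of Scd1 (1415965_at) did not follow the brighter. It read 3.64, 3.59 and 3.70 in wild-type and 3.46, 3.88 and 3.68 in knockout hearts, with a difference of 0.03 (interval -0.23 to 0.29). Its lowest and highest values were both knockout hearts. When the log2 values of both probe sets were averaged, the difference of Scd1 was -0.12 (limma adjusted p = 0.704 over genes).

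Scd2 encodes the desaturase that predominates in brain and in growing tissues. Its brightest probe set (1415822_at) read 6.40, 6.64 and 6.98 in wild-type and 6.55, 6.23 and 6.57 in knockout hearts. Wild-type heart 3 stood above all others and knockout heart 2 below all others, while knockout hearts 1 and 3 lay between wild-type hearts 1 and 2. The means were 6.67 ± 0.29 and 6.45 ± 0.19 (SD, n = 3), a knockout level of 85.6% of wild type (interval 65.9% to 111%). The difference was -0.22 (interval -0.60 to 0.15; limma adjusted p = 0.645). Without wild-type heart 3 it was -0.07, without knockout heart 2 -0.11, and without wild-type heart 1 -0.36.

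Both dimmer probe sets of Scd2 had slightly higher means in the knockout. One (1415823_at) read 4.50, 4.43 and 4.96 in wild-type and 4.50, 4.32 and 5.11 in knockout hearts, a difference of 0.01 (interval -0.51 to 0.53). The other (1415824_at) read 3.18, 3.14 and 3.42 against 3.32, 3.26 and 3.51, a difference of 0.12 (interval -0.13 to 0.36). In both, heart 3 of each genotype was the highest of its group, and knockout heart 3 was the highest of all, which it was not in the brightest probe set. The average over the 3 probe sets differed by -0.03 (limma adjusted p = 0.959 over genes).

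**Figure D2:**
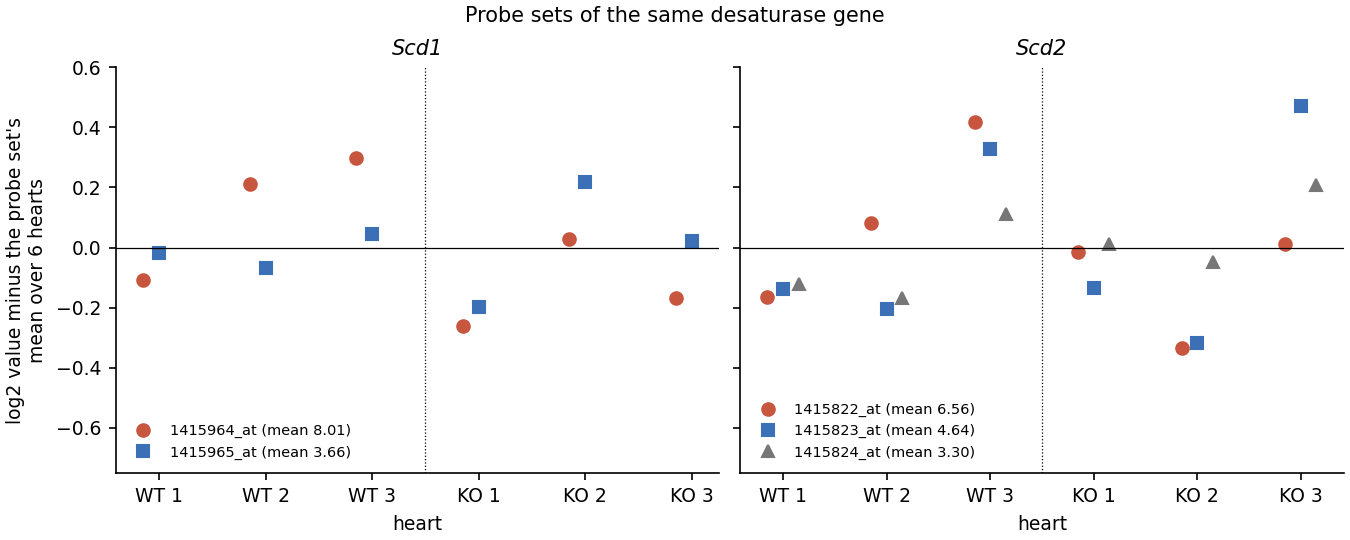
Log2 value of each Scd1 and Scd2 probe set minus its own mean over the 6 hearts, by heart (WT wild type, KO Pgc1b knockout), with colours and symbols for probe sets and their mean level in the legend. For Scd2 all 3 probe sets are high in WT 3, but in KO 3 the brightest is near its mean while both dimmer ones are at their highest.

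Across hearts, the dimmer probe set of Scd1 correlated with the brighter at r = 0.36, and those of Scd2 with the brightest at 0.64 and 0.39. The 2 dimmer Scd2 probe sets correlated with each other at 0.88. Over the 88 genes with several probe sets, the median of 103 such correlations with the brightest was 0.39, so these desaturase values were ordinary for the table. The sign of the genotype difference was shared with the brightest probe set in 67.0% of the 103 comparisons and in 0 of the 3 of Scd1 and Scd2. These are descriptions over 6 hearts that share the same arrays. In the RefSeq gene table Scd3, Scd2, Scd4 and Scd1 are consecutive protein-coding genes on chromosome 19. Probe sequences were not used here, and cross-hybridisation between these related transcripts was not tested.

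**Figure D3:**
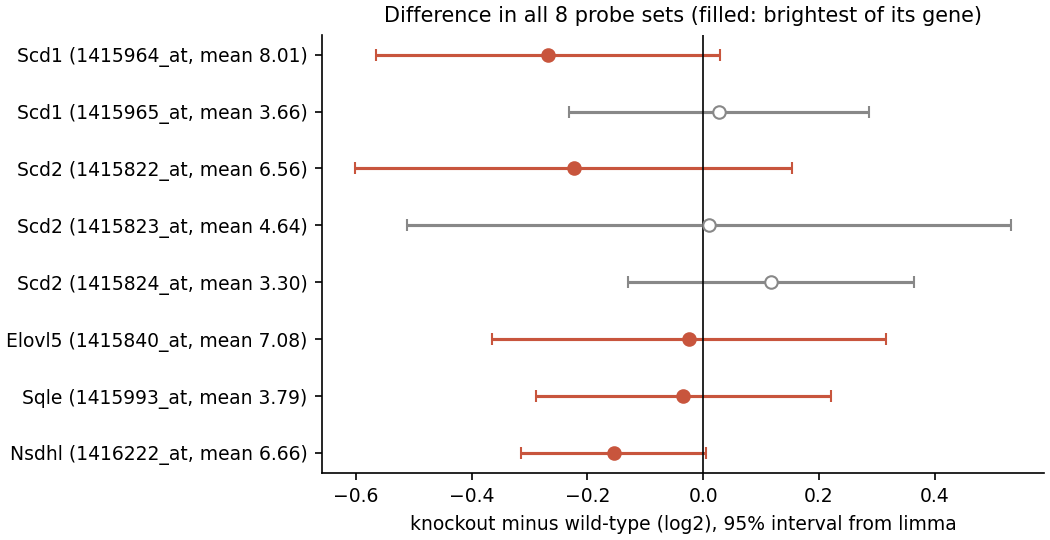
Difference (knockout minus wild type, log2) of all 8 probe sets with limma's 95% interval, from 3 hearts per genotype. Filled points are the brightest probe set of each gene and open points the dimmer ones; every interval includes 0, and the 3 open points lie at 0.01 to 0.12.

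Elovl5 encodes the elongase of polyunsaturated fatty acids. Its probe set (1415840_at) read 6.89, 7.09 and 7.29 in wild-type and 6.88, 6.99 and 7.33 in knockout hearts. Both genotypes covered nearly the same range, from a low heart 1 to a high heart 3. The means were 7.09 ± 0.20 and 7.06 ± 0.24 (SD, n = 3), a knockout level of 98.3% of wild type (interval 77.6% to 124%). The difference was -0.03 (interval -0.37 to 0.32; limma adjusted p = 0.976), and it turned to 0.07 without wild-type heart 3, to 0.07 without knockout heart 1 and to 0.01 without knockout heart 2. When the hybridisation spike level entered the fit as a covariate, it was -0.37 (interval -0.71 to -0.04; limma adjusted p = 0.439). The same covariate gave -0.63 for the brightest Scd2 probe set (interval -0.97 to -0.29; limma adjusted p = 0.306) and -0.42 for the brighter Scd1 probe set (limma adjusted p = 0.507). Since the spike level separates the genotypes, these fits cannot cleanly tell it apart from genotype.

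Sqle, squalene epoxidase, adds the oxygen that lets squalene be closed into the sterol rings and is a control point of cholesterol synthesis. Its probe set (1415993_at) read 3.75, 3.83 and 3.85 in wild-type and 3.54, 3.91 and 3.87 in knockout hearts. Knockout heart 1 was the lowest of the 6 and the other knockout hearts were the highest. The means were 3.81 ± 0.05 and 3.77 ± 0.20 (SD, n = 3), a difference of -0.03 (interval -0.29 to 0.22; limma adjusted p = 0.929). Without knockout heart 1 the difference was 0.08. Sqle was among the lowest 25% of probe sets by mean level, as were the dimmer Scd1 and Scd2 probe sets, and no detection calls were used here to set it against background.

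Nsdhl encodes a sterol dehydrogenase that helps strip methyl groups from the precursors of cholesterol. Its probe set (1416222_at) read 6.72, 6.69 and 6.80 in wild-type and 6.59, 6.60 and 6.56 in knockout hearts. Every knockout heart lay below every wild-type heart, the only 1 of the 8 probe sets to do so, where 9.02% of all probe sets did and 18.7% separated in either direction. The means were 6.74 ± 0.06 and 6.58 ± 0.02 (SD, n = 3), a knockout level of 89.8% of wild type (interval 80.4% to 100.3%). The difference was -0.15 (interval -0.31 to 0.0044) and did not pass (limma adjusted p = 0.508). It ran from -0.12 to -0.18 when single hearts were left out. The hybridisation spikes and the Actb 3' minus 5' signal were also lower on the knockout arrays. The poly-A spikes were not, with means of 7.08 in the wild type and 7.14 in the knockout. With the spike level as a covariate the Nsdhl difference was -0.17 (interval -0.43 to 0.09), and the part of the Actb measure was not tested. Nsdhl lies on the X chromosome, and the sex of the mice is not in the labels used here.

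Lists of the wider pathways had few other measured genes. Of 37 listed genes of fatty acid synthesis and desaturation, Scd1, Scd2 and Elovl5 were measured, and of 31 genes of sterol synthesis and uptake, Sqle, Nsdhl and Lbr. Lbr, a protein of the inner nuclear membrane that also reduces a sterol double bond, averaged 6.92 ± 0.06 in the wild type and 7.03 ± 0.16 in the knockout (log2, SD, n = 3; difference 0.11, interval -0.11 to 0.34; limma adjusted p = 0.690). Taz, which remodels the mitochondrial lipid cardiolipin and was the 1 measured gene of 21 of phospholipid synthesis, differed by 0.00 (interval -0.19 to 0.19). None of the 21 listed genes of SREBP and LXR control was measured, and 0 genes of these lists passed over all probe sets.

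Covariation across the 6 hearts was examined for the 10 pairs of the 5 genes, each by its brightest probe set. All 10 Pearson correlations were above 0, from 0.00 for Scd2 with Sqle to 0.74 for Scd1 with Nsdhl, with a median of 0.56. Over all 121771 pairs of the 494 genes the median was 0.03, with the middle 50% between -0.34 and 0.39, and 52.1% were above 0. Taken as deviations from the mean of each genotype, 9 of the 10 were above 0 and their median was 0.43. The genotypes differed in this description: over the 3 wild-type hearts all 10 correlations were above 0, whereas over the 3 knockout hearts 5 of the 10 were below 0, as for Scd1 with Scd2 (0.92 in wild-type and -0.93 in knockout hearts). That difference between genotypes was not tested, and the shares over all gene pairs within each genotype were not computed. Correlations over 3 hearts are often far from 0. With the probe sets of each gene averaged, the median over 6 hearts was 0.34 and r of Scd1 with Scd2 was 0.11. No pair had an exact permutation p under 0.05, before or after Benjamini-Hochberg adjustment over the 10 pairs. With the hybridisation spike level regressed out of each gene, Scd2 with Nsdhl moved from r = 0.60 to 0.92, the highest of the 10. Its permutation p was 0.0556 after adjustment, which is approximate because residuals were permuted.

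**Figure D4:**
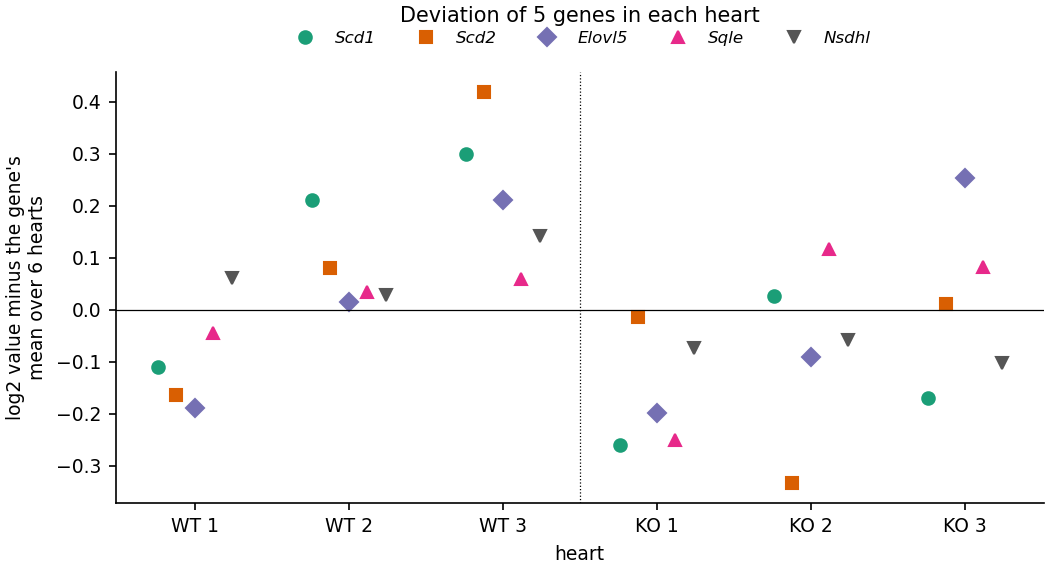
Log2 value of the brightest probe set of each of the 5 genes minus the gene's mean over the 6 hearts, by heart (WT wild type, KO Pgc1b knockout). All 5 genes lie above 0 in WT 3, 4 of 5 lie below 0 in WT 1, all 5 lie below 0 in KO 1, and the genes scatter to both sides in KO 2 and KO 3.

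A few hearts stood out in this pattern. Wild-type heart 3 was the highest wild-type heart for all 5 genes, as it was for 37.4% of all genes. Wild-type heart 1 was the lowest wild-type heart for 4 of the 5, all but Nsdhl, as for 43.7% of all genes. Knockout heart 1 was the lowest of all hearts for Scd1, Elovl5 and Sqle, as for 23.1% of all genes. Without wild-type heart 3 the median r of the 10 pairs was 0.08.

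The pair with the highest correlation was Scd1 with Nsdhl. Pearson's r was 0.74 (exact permutation p = 0.107, adjusted 0.442 over 10 pairs) and Spearman's rho 0.77 (exact permutation p = 0.103, adjusted 0.806). Within genotypes r was 0.44, and without the 2 hearts farthest from the Scd1 median, wild-type hearts 2 and 3, it was 0.23 over the other 4. Leaving out single hearts gave r of 0.49 to 0.89. The desaturases Scd1 and Scd2 had r = 0.55 (exact permutation p = 0.265, adjusted 0.442) and rho 0.49 (exact permutation p = 0.356, adjusted 0.806). Without the same 2 hearts that r was -0.93 over 4 hearts, and without wild-type heart 3 alone it was 0.02.

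Elovl5 and Sqle were the pair least moved by single hearts, though leaving out each heart gave r of 0.47 to 0.81. With all hearts their r was 0.62 (exact permutation p = 0.171, adjusted 0.442) and rho was 0.66 (exact permutation p = 0.175, adjusted 0.806). Their r was 0.62 within genotypes, 0.66 without the 2 hearts farthest from the Elovl5 median and 0.61 without wild-type heart 3. After further quantile normalization it was 0.41, and Sqle was a dim probe set. Scd2 with Elovl5 had r = 0.63 (exact permutation p = 0.171, adjusted 0.442) and rho 0.60 (exact permutation p = 0.242, adjusted 0.806), and r = 0.53 without the 2 farthest hearts. The sterol enzymes Sqle and Nsdhl had r = 0.16 (exact permutation p = 0.776, adjusted 0.884) and rho -0.14 (exact permutation p = 0.803, adjusted 1), and without the 2 hearts farthest from the Sqle median r was -0.56. The correlation of these sterol enzymes was among the 3 lowest of the 10.

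**Figure D5:**
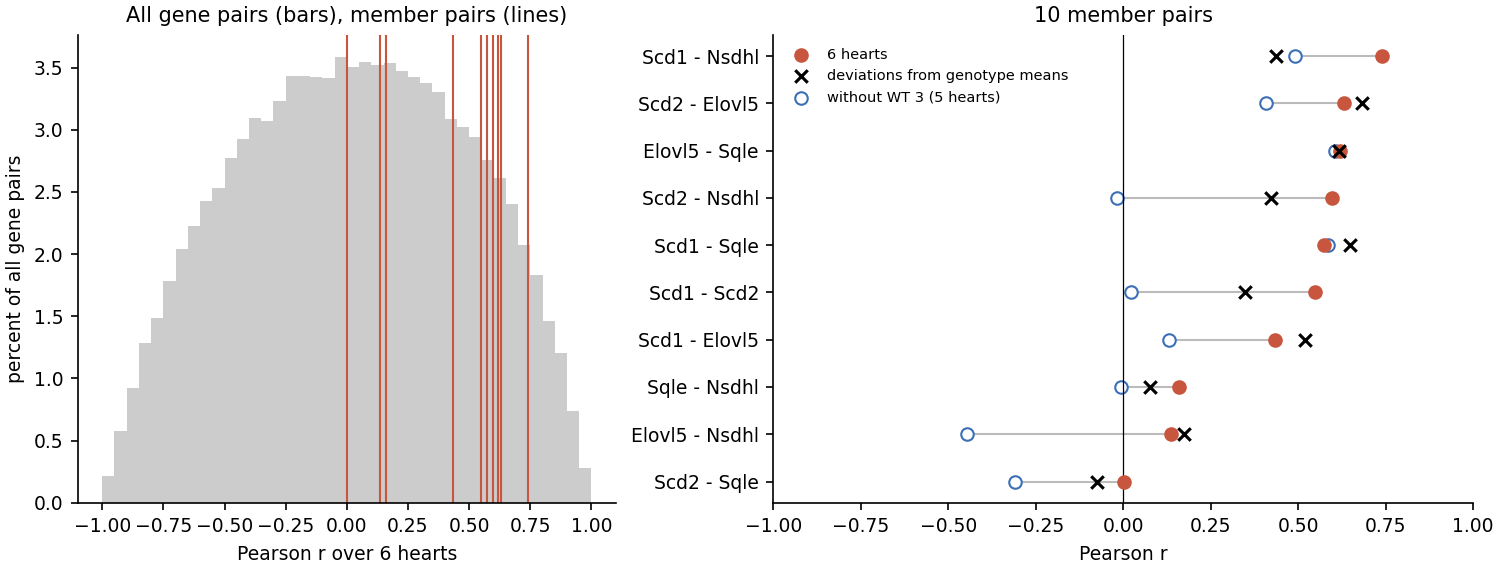
Left, percent of all 121771 gene pairs by Pearson r over 6 hearts (grey bars) with the 10 member pairs as red lines. Right, r of each member pair over 6 hearts (red), from deviations from genotype means (crosses) and without wild-type heart 3 (open blue, 5 hearts), where 4 of the 10 pairs fall below 0.

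The genes most like each member across the 6 hearts were not other members. By Pearson's r over all other 493 genes, Nadk (0.95) and Mrpl27 (0.94) were nearest to Scd1, and Nusap1 (0.99) and Rbck1 (0.91) to Scd2. Actr1a (0.97) and Sh2d3c (0.94) were nearest to Elovl5, Tfg (0.97) and Polr2g (0.95) to Sqle, and Snrpc (0.96) and Lamp1 (0.94) to Nsdhl. These are the highest of 493 values each and carry no test. Other members were few among the 493 genes, so non-members in the first places say little about whether members go together. The member nearest to Scd1, Nsdhl, came at position 32 of 493 in this order, the one nearest to Scd2, Elovl5, at 56, and the one nearest to Elovl5, Scd2, at 61. For Sqle the nearest member was Elovl5 at position 75, and for Nsdhl it was Scd1 at 45.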

How the data were processed

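Total RNA (25 ng per heart) was amplified with a whole-transcriptome kit and then converted to labelled cRNA, per the labels' protocols. For the log2 values the authors deposited, the submitters' processing notes name RMA, GCOS and Partek; versions and order are not given in the sources used here. RMA gives all arrays a common distribution, so differences are relative to other genes. Any spread from the amplification is part of the spread between arrays. Values were present in 707 of 45101 rows, of which 64 were controls, and the other rows were not analysed here. All 6 columns were mapped by the labels.

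The 643 probe sets were tested in R 4.3.3 with limma 3.58.1 (eBayes after lmFit, two-sided, no covariate), adjusted by Benjamini-Hochberg, and called at an adjusted p under 0.05. The fit was tested on simulated data, where 50.2% of the 643-probe-set comparison's changes of 0.3 and 90.1% of those of 0.6 were called. That simulation planted changes in many probe sets, with independent noise and spreads drawn from the fitted prior. Its shares can therefore be too high for these arrays, where the smallest limma adjusted p was 0.202. Platform symbols were updated through RefSeq gene IDs (597 of 597 matched). Correlations used exact permutation of 6 hearts (Python 3.11.15), where the smallest p is near 0.00139. Precision is limited by the number of arrays. Named genes were the members, the measured genes of the lists and markers, and the 2 genes nearest to each member. Outside this rule stand the targeted gene, the Actb control, Scd3 and Scd4 as neighbours, and Atp5o. Members, lists and tests were chosen with earlier results of these data known, and the promoter motifs after the values had been seen. Replicate numbers 1 to 3 occur in both genotypes, and the labels do not say that they pair hearts.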

Additional observations from a re-analysis of the deposited data

How the results depend on the processing

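With 3 hearts per genotype, differences near 0.3 were called in 50.2% of simulated cases, in data with many planted changes. The share can be lower in the real table, so differences of the size of these genes can be missed. Nothing was called among the members in any alternative. The difference of Nsdhl kept its sign in all 16 alternatives and those of the brightest Scd1 and Scd2 probe sets in all 15 of theirs, while averaging the probe sets gave -0.120 for Scd1 and -0.0323 for Scd2. Averaging took the median of the 5 genes to -0.0342, and leaving out single hearts to -0.179 to -0.0703. Of all 643 probe sets 0 were called, and 2 with a prior variance that follows expression, Atp5o (named after its value was seen) and a probe set with 2 symbols. Array weights turned Elovl5 to 0.00434 and Sqle to 0.0126. Centring turned the dimmer probe set of Scd1 to -0.0160 and 1415823_at of Scd2 to -0.0335. With the hybridisation spike covariate, which separates the genotypes, the median of the 5 genes was -0.375, and 1415823_at and 1415824_at of Scd2 turned to -0.506 and -0.0829.

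Leaving out each heart gave -0.158 to 0.0741 for Elovl5, -0.101 to 0.0824 for Sqle, -0.0740 to 0.133 for the dimmer Scd1 probe set, -0.222 to 0.176 for 1415823_at, 42 to 88 probe sets at an unadjusted limma p under 0.05 (66 with all hearts; 42 without knockout heart 2), and a median r of 0.0761, without wild-type heart 3, to 0.704. It gave r of -0.308 to 0.403 for Scd2 with Sqle, -0.0165 to 0.779 for Scd2 with Nsdhl, -0.448 to 0.724 for Elovl5 with Nsdhl and -0.508 to 0.395 for Sqle with Nsdhl. Scd2 with Sqle had r = -0.156 after quantile normalization, -0.00797 with the hybridisation spikes regressed out, -0.156 with the poly-A spikes regressed out, -0.0759 within genotypes and rho = -0.0857. Sqle with Nsdhl had r = -0.220 after quantile normalization and rho = -0.143, and Elovl5 with Nsdhl rho = -0.0286. No pair passed in any of these, and with 5 hearts a pair that stands alone cannot, since its adjusted p is at least 0.0833. The cause was not tested. Without the lowest 25% of probe sets, Sqle, the dimmer Scd1 and Scd2 probe sets and the median have no value.

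Same-numbered hearts of both genotypes did not consistently deviate together over the probe sets (r = -0.239, -0.102 and 0.193 for numbers 1, 2 and 3). Differently numbered hearts had r from -0.297 to 0.329, so the numbers are not taken as pairs. With the replicate number as a block 0 probe sets were called, and Nsdhl had an adjusted p = 0.558 in limma.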
